A study of Sus scrofa with 18 samples.

Results

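The interferon-stimulated antiviral genes described here are DDX60, DDX58, MX1, MX2, ISG15, OAS1, RSAD2 and USP18, measured in the right ventricle of pigs before and after ligation of coronary arteries. They were taken by symbol from a list of 9 genes, of which 8 are named on the array and OAS2 is not named in the probe table used here. The rule kept every probe set assigned to exactly 1 of these symbols, which gave 13 of the 24123 probe sets. DDX58, MX2 and RSAD2 have several probe sets and the other genes 1 each. Of the 13, 10 were among the 23935 probe sets tested, and 3 for RSAD2 belong to the array's control probe sets. The genes were selected on measured values of these arrays, namely their failure minus baseline changes and the difference of the DDX60 change between label wordings, so both are given as a description. For these contrasts the number of antiviral probe sets past the threshold is printed only beside the share of all probe sets past it, and nothing is read from it.

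Right ventricular free wall tissue of 9 animals, a Hampshire, Yorkshire and Swedish Landrace mix, gave RNA in failure and at baseline for 18 Affymetrix 3' IVT arrays. Failure followed ligation of coronary arteries of that wall. The labels of 6 pigs (6, 8, 9, 11, 12 and 13) give 120 min of ischemia for the failure sample, and these are called ischemia-labelled pigs. The labels of the other 3 (5, 10 and 14) define failure as a right atrial pressure above 20 mmHg and give a weight of 30 to 40 kg, and these are called pressure-labelled pigs. All animals are of 1 breed mix with no genetic modification named, and no group of time-matched pigs without ligation was analysed, so time under surgery and ligation cannot be told apart. Values are deposited log2 intensities per probe set, on which a difference of 1 is a doubling, and array medians lay between 5.59 and 5.66. The 10 measured markers of ventricular cardiomyocytes (of 12 listed) had mean levels from 13.28 to 14.95.

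Interferons are secreted proteins that cells release when they sense viral nucleic acid. Their receptors act through JAK kinases and STAT and IRF transcription factors, which switch on a large common set of genes in nearly every cell type, heart muscle and vessel cells included. The genes described here are part of that set and fall into sensors of foreign RNA, effectors that block viral replication, and the ISG15 system with its feedback regulator. In bulk tissue, fewer cells of a type and less RNA per cell cannot be told apart.

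Pig 10 had the highest level of the 9 animals in all 8 genes, in failure and at baseline alike. ISG15, a ubiquitin-like protein that is attached to other proteins after interferon, had a log2 intensity of 12.78 in failure in pig 10, against 7.41 to 8.91 in failure in the other pigs. At baseline ISG15 was at 13.11 in pig 10 and at 7.40 to 9.19 in the others. Pig 10 thus lay 14.6-fold above the next highest pig in failure and 15.2-fold above it at baseline, while the other 8 pigs overlapped between the samples. USP18, the protease that removes ISG15 from proteins and damps signalling at the interferon receptor, was at 9.06 in failure and 9.39 at baseline in pig 10. The other pigs had USP18 levels from 6.05 to 7.12 in failure and from 5.94 to 6.82 at baseline.

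The RNA sensors showed the same animal on top. DDX58, which encodes the cytosolic RNA sensor RIG-I, had levels in failure from 5.47 to 8.43 with a median of 6.24, and from 5.72 to 9.49 with a median of 6.18 at baseline. Both maxima were pig 10, and the highest of the other pigs had 6.49 in failure and 6.55 at baseline. The second, dimmer DDX58 probe set had 6.37 in failure and 7.56 at baseline in pig 10, against highest values of 4.65 in failure and 4.44 at baseline in the others. DDX60, an interferon-induced helicase reported in human cells to promote RIG-I signalling, was at 6.27 in failure and 7.03 at baseline in pig 10. The other pigs ran from 3.85 to 5.38 in failure and from 4.61 to 5.45 at baseline, all of them below the array medians.

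Among the effectors, MX1, a dynamin-like GTPase that blocks incoming viral particles, was at 9.37 in failure and 10.68 at baseline in pig 10. The other pigs had MX1 at 7.07 to 8.30 in failure and at 7.18 to 8.28 at baseline. MX2, the related GTPase encoded by the neighbouring gene in the RefSeq gene table of Sscrofa11.1, had the smallest separation. It was at 7.53 in failure and 7.75 at baseline in pig 10, against 6.27 to 6.86 in failure and 6.23 to 6.78 at baseline in the others. Its second probe set lay between 3.14 and 3.61 on all 18 arrays, and pig 10 (3.22 in failure, 3.35 at baseline) was within the range of the others.

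RSAD2 encodes viperin, a radical SAM enzyme that makes a chain-terminating nucleotide. Its brightest probe set was at 10.18 in failure and 11.01 at baseline in pig 10, against 6.72 to 8.64 in failure and 6.89 to 8.53 at baseline in the others. Of the 3 control probe sets for RSAD2, that at the 3' end gave 7.73 in failure and 8.63 at baseline in pig 10, and at most 5.61 in failure and 6.07 at baseline in the others. The 5' control probe set lay between 5.55 and 6.05 on all arrays and did not separate pig 10. The middle one was at 3.56 in failure and 4.59 at baseline in pig 10, with the others at 2.62 to 3.33 over both samples.

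OAS1, which makes the 2'-5' oligoadenylates that activate RNase L, had an extreme at either end. Pig 10 was highest, at 9.01 in failure and 9.54 at baseline. Pig 13 was lowest, at 3.74 in failure and 3.79 at baseline, and the other 7 pigs lay between 6.41 and 7.77 over both samples. The gap below them was 6.73-fold in failure and 6.15-fold at baseline. OAS1 has 1 probe set on the array, so a lower transcript level in pig 13 and a transcript that this probe set does not match cannot be told apart. At the brightest probe sets of the other 7 genes pig 13 lay at most 0.82 log2 units below the next lowest pig, the value of ISG15 at baseline.

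**Figure D1:**
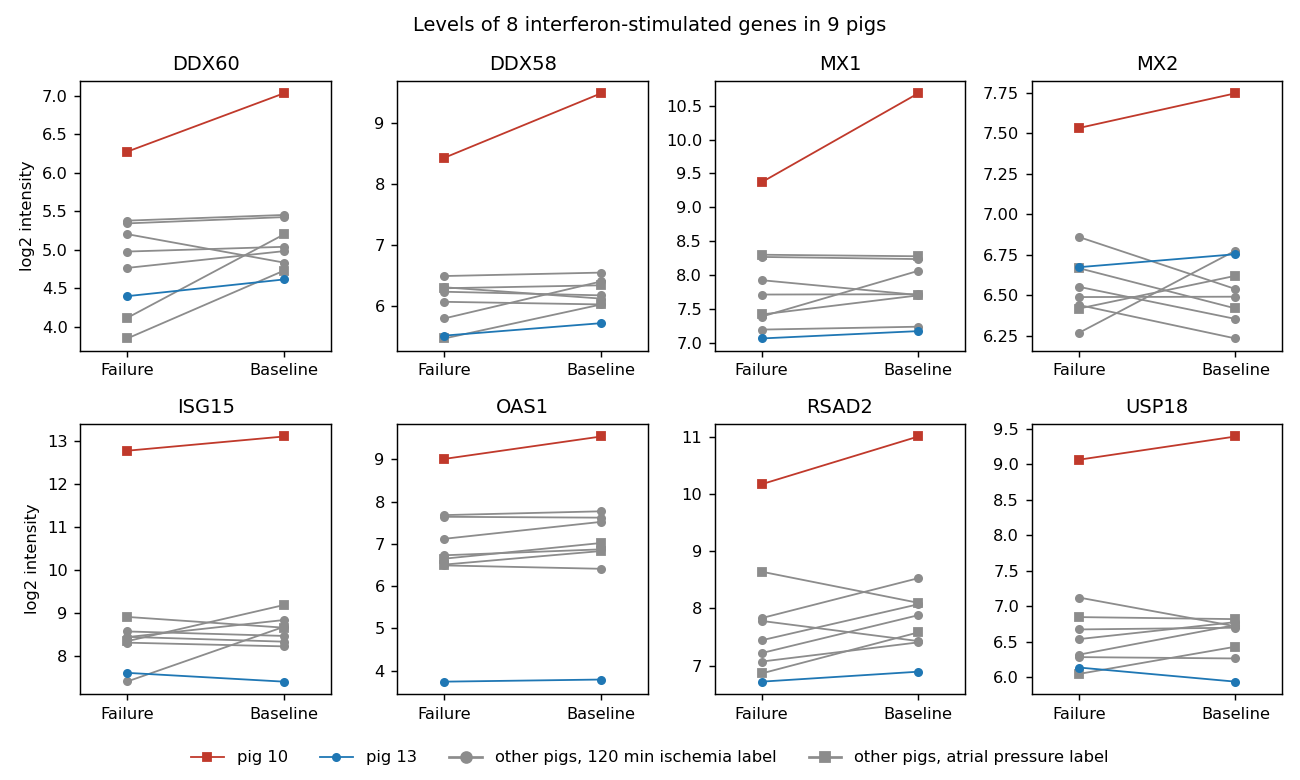
Log2 intensity of the brightest probe set of each of the 8 genes in failure (left) and at baseline (right), 1 line per pig, with circles for ischemia-labelled and squares for pressure-labelled pigs. Pig 10 is the highest line in all 8 panels, and pig 13 is far below the others for OAS1 only.

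The pattern was set against all tested probe sets by counting, for each pig, those in which both of its arrays lay at least 1 log2 unit above or below every array of the other pigs. This count was added after the levels had been seen. For pig 10, 30 probe sets (0.125%) lay above, and they included 7 of the 10 tested antiviral probe sets, for 6 of the 8 genes. The exceptions were DDX60, MX2 and the second MX2 probe set. By any margin, 638 probe sets (2.67%) lay above in pig 10, and 9 of the 10 antiviral probe sets were among them. The other pigs had 0 to 3 probe sets above by 1 log2 unit, with 0 antiviral ones. Below by that margin, pig 5 had 28 and the other pigs 0 to 2. In pig 13 it was 1 probe set (0.00418%), that of OAS1, and the next probe set in order lay 0.58 below. No other probe set of pig 13 thus lay below the other pigs by a gap of this size.

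**Figure D2:**
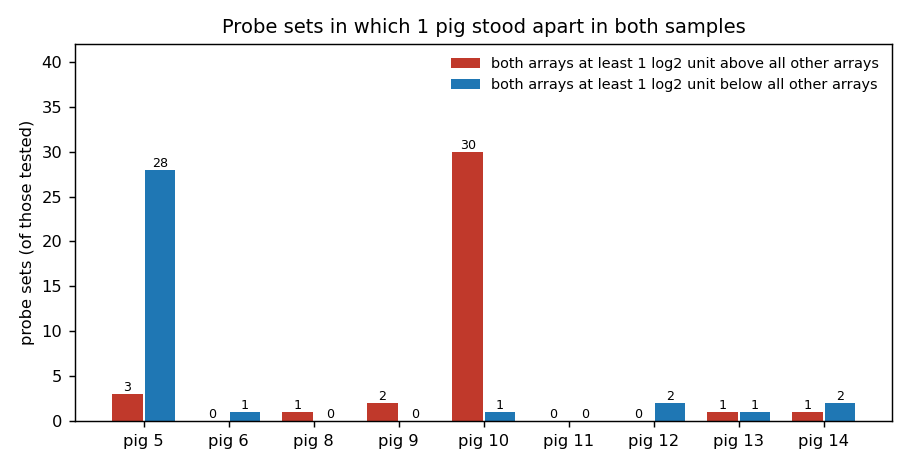
Number of the 23935 tested probe sets in which both arrays of a pig lay at least 1 log2 unit above (red) or below (blue) all arrays of the other pigs. Pig 10 has 30 above and 1 below, pig 5 has 3 above and 28 below, and the other pigs have at most 2 in either direction.

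The 30 probe sets carried 18 gene symbols. Of these genes, 6 were antiviral genes described above and 7 came from the lists of other interferon pathway genes, namely EIF2AK2, XAF1, IFI44L, PARP12, IFIT3, PSMB8 and IRF7. The remaining 5, named after their values were seen, were RSF1, ISG12(A), PLAC8, AMCF-II and HSPA6. Another 9 of the 30 probe sets had no single gene symbol. EIF2AK2, the kinase PKR that halts translation on double-stranded RNA, was at 9.79 in failure and 9.85 at baseline in pig 10, and at most 7.89 and 7.86 in the others. IRF7, a transcription factor that amplifies interferon production, was at 7.45 in failure and 8.18 at baseline, with the others at most at 6.44 and 6.41, although at its dimmer probe set pig 10, with 3.01 in failure and 3.43 at baseline, was below the lowest of the others in failure and within their range at baseline.

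Of 20 measured genes in a list of other type I interferon-stimulated genes, pig 10 had both of its arrays above all others in 13. In another 4 (MOV10, SAMHD1, SP110 and ZC3HAV1) this held for the baseline array alone, and in CCL5, IFI30 and PML for neither. IFIT3, of the family that binds viral RNA, was at 9.50 in failure and 10.77 at baseline in pig 10, and at most 8.25 and 8.15 in the others. IFIT1 was at 9.41 in failure and 10.30 at baseline in pig 10, against at most 8.41 in failure and 8.33 at baseline in the others, and its other 2 probe sets also had pig 10 on top.

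The interferon genes that were measured, IFNA1, IFNB1 and IFNG, had pig 10 within or near the range of the other animals. Of 17 listed interferon and receptor symbols 7 were measured, and IFNE, IFNK, IFNW1, IFNL1 and IFNL3 were not. IFNA1 was at 5.21 in failure and 5.25 at baseline in pig 10, within the range of the others (5.07 to 5.75 and 4.89 to 5.40). IFNB1 (3.21 in failure, 3.51 at baseline) and IFNG (3.41 in failure, 3.50 at baseline) were dim on all arrays, with the highest other value of either at 3.82. Of the receptor genes, IFNAR1 was at 6.95 in failure in pig 10, within the range of the others (6.77 to 7.45). At baseline it was at 6.99, just below their range (7.02 to 7.48). IL10RB was at 5.23 in failure and 5.66 at baseline in pig 10, above the highest values of the others, 5.03 and 5.10. IFNAR2 was at 7.35 in failure in pig 10, within the range of the others, and at 7.66 at baseline, above their highest value of 7.32.

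**Figure D3:**
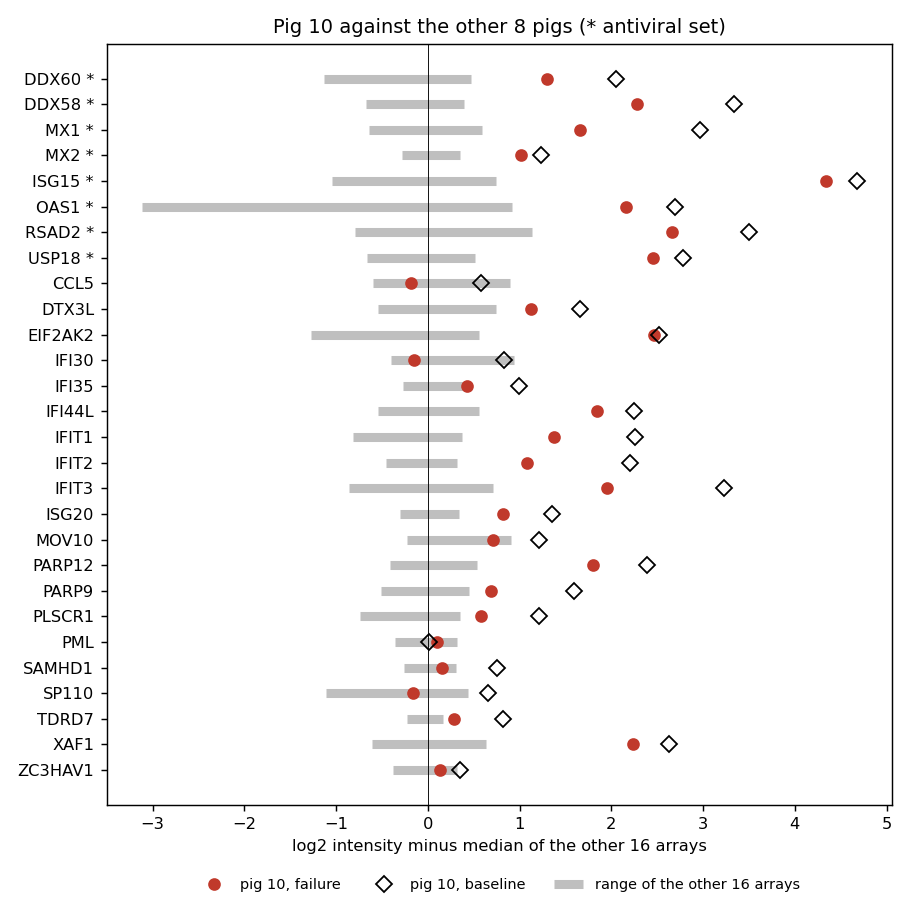
Log2 intensity of pig 10 in failure (red circles) and at baseline (open diamonds) minus the median of the other 16 arrays, for the 8 antiviral genes (starred) and 20 other type I interferon-stimulated genes. Grey bars span the other 16 arrays. Both symbols lie right of the bar in all 8 starred genes and in 13 of the 20 others.

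RNA quality and cell type markers are set beside this pattern. GAPDH has control probe sets along its transcript, and the 3' minus 5' log2 level, which grows as RNA degrades, was 1.24 in both samples of pig 10, within the range of the 9 pigs (0.31 to 3.55 in failure, 0.61 to 2.61 at baseline). The summed intensity of 11 T and NK cell markers (of 15 listed) was 249 in failure in pig 10, where the 9 pigs ran from 213 to 267, and 289 at baseline, where they ran from 238 to 306. All 11 had mean levels below the array medians. The sum of 8 monocyte and macrophage markers (of 12) was 1082 in failure and 1058 at baseline in pig 10, in a range of 828 to 1727 and of 887 to 1667. The sum of 4 B cell and plasmacytoid dendritic cell markers (of 9) was 192 in failure, within a range of 146 to 246, and at baseline, at 243, it was the highest of the 9. Of these 4, IRF8 was the brightest (6.95 at baseline over the pigs), and the other 3 were below the array medians. IRF8 and TLR9 are also in the lists of interferon pathway genes. Pig 10 had the lowest sum of 9 endothelial markers in both samples, 1708 in failure and 1866 at baseline, with highest sums of 4195 and 3522, and also the lowest sums of 4 fibroblast markers. The part of cell composition in the high antiviral levels was not tested.

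Within pigs, the mean failure minus baseline changes of the antiviral genes were smaller in size than the SD of the mean levels of the 9 pigs. The mean change was below 0 in 8 of 8 genes (7 of 8 after quantile normalization, where MX2 was above 0), with a median over the genes of -0.24. Over all 6765 genes the median was -0.01 and 53.6% had a mean change below 0, as had 49.8% of all tested probe sets. In limma with pig as a block, 16 of all tested probe sets (0.0668%) passed an adjusted p of 0.05, of which 0 were antiviral (1470 of the 23935 had an unadjusted p under 0.05). The direction of these changes was known when the genes were chosen. Without pig 10 the median was -0.15 and 7 of 8 genes were below 0. The SD of the changes over the 9 pigs ran from 0.21 for OAS1 to 0.53 for ISG15, while the SD of the pigs' mean levels ran from 0.39 for MX2 to 1.58 for ISG15. Without pig 10 the SD of the mean levels had a median of 0.41. It ran from 0.12 for MX2 to 1.25 for OAS1, a value that includes the low OAS1 level of pig 13. The SD of the changes then ran from 0.18 to 0.57, with a median of 0.29, so the ranges overlapped.

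RSAD2 had the largest mean change at its brightest probe set, -0.35 ± 0.50 (SD, n = 9), with a lowest change of -0.84, a median of -0.63 and a highest of 0.55. It was lower in failure in 7 of 9 pigs. DDX60 had a mean change of -0.33 ± 0.47 (SD, n = 9), was lower in 8 of 9 pigs and had its extremes in pig 5 (-1.08) and pig 6 (0.37). DDX58 had a mean change of -0.25 ± 0.41 (SD, n = 9), from -1.05 in pig 10 to 0.18 in pig 9. At its second probe set the mean was -0.17 ± 0.51 (SD, n = 9), and pig 10 was again lowest with -1.19. In both DDX58 probe sets pig 10 thus had the lowest change, and the mean without it was -0.15 at the brighter and -0.04 at the dimmer one.

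MX1 had a mean change of -0.24 ± 0.47 (SD, n = 9), with its extremes in pig 10 (-1.31) and pig 6 (0.22). Without pig 10 the MX1 mean was -0.10. ISG15 had a mean of -0.23 ± 0.53 (SD, n = 9) but was higher in failure in 5 of 9 pigs, and its lowest changes were in pigs 11 (-1.27) and 14 (-0.84). Without pig 11 the ISG15 mean was -0.10. OAS1 had a mean of -0.20 ± 0.21 (SD, n = 9), lower in 7 of 9 pigs, and in pig 13, with its low OAS1 level, the change was -0.05. USP18, with a mean of -0.08 ± 0.28 (SD, n = 9), was lower in 5 of 9 pigs, and its mean was -0.05 without pig 10, -0.04 without pig 11, -0.14 without pig 12 and -0.04 without pig 14. MX2 was lower in 5 of 9 pigs and ran from -0.51 to 0.32, and its mean was -0.004 with all pigs and 0.02 without pig 10. At the second, dim MX2 probe set the mean was -0.10 ± 0.09 (SD, n = 9), lower in 8 of 9 pigs.

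By animal, all 8 genes were lower in failure in pigs 10, 11 and 14, with median changes of -0.64, -0.41 and -0.47. In pigs 8 and 13, 7 and 6 of the 8 genes were lower, with medians of -0.16 and -0.09. In pigs 6 and 12, 7 and 6 genes were higher in failure, with medians of 0.10 and 0.07. Pigs 5 and 9 were mixed, with 3 and 5 genes lower. The pigs thus did not share a direction, and the lowest medians were those of pigs 10, 11 and 14.

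Set by label wording, the DDX60 changes did not overlap. DDX60 had changes of -1.08 in pig 5, -0.76 in pig 10 and -0.88 in pig 14, the pressure-labelled pigs. In the 6 ischemia-labelled pigs its change had a lowest value of -0.22, a median of -0.08 and a highest of 0.37. All 3 pressure-labelled pigs thus lay below all 6 others, as they did in 1.22% of the tested probe sets, and the mean without pig 10 was -0.98. This difference was among the values that chose the gene and gets no test. In failure, pigs 14 and 5 had the lowest DDX60 levels, 3.85 and 4.11, while at baseline they had 4.73 and 5.20, inside the range of the ischemia-labelled pigs (4.61 to 5.45). The GAPDH 3' minus 5' difference in failure was 3.55 in pig 5 and 0.31 in pig 14, the highest and the lowest of the 9. At baseline it was 2.61 in pig 5 and 0.64 in pig 14. The part of RNA quality in the DDX60 changes was not tested.

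For the other 7 genes the changes of the label groups overlapped. The mean change was -0.55 ± 0.50 in pressure-labelled pigs and -0.10 ± 0.28 in ischemia-labelled pigs for DDX58 (SD, n = 3 and 6). Their difference of -0.46 was -0.21 without pig 10 and -0.71 without pig 5, and at the second DDX58 probe set it was -0.15. For OAS1 it was -0.41 ± 0.11 in pressure-labelled and -0.10 ± 0.17 in ischemia-labelled pigs, and for MX1 it was -0.52 ± 0.70 in pressure-labelled and -0.10 ± 0.30 in ischemia-labelled pigs. The difference between label groups for MX1 rested on pig 10, and without that pig it was -0.03. For RSAD2 the means were -0.34 ± 0.77 in pressure-labelled and -0.36 ± 0.41 in ischemia-labelled pigs, a difference of 0.02. It was -0.42 without pig 5, 0.27 without pig 10 and 0.21 without pig 14. Over the 8 genes the median difference, pressure-labelled minus ischemia-labelled, was -0.26, and it was -0.13 without pig 10 and -0.41 without pig 5. In limma's interaction test 0 of the 23935 tested probe sets (0.0%) passed, antiviral ones included, and 1356 had an unadjusted p under 0.05.

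**Figure D4:**
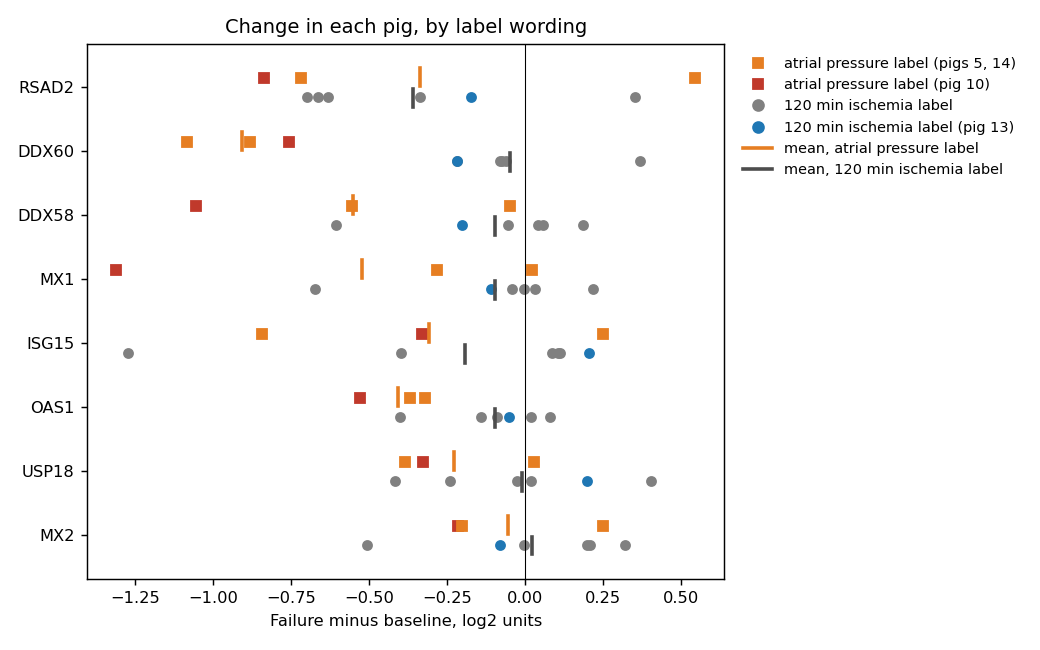
Failure minus baseline change in log2 units for each of the 8 genes and each pig, with pressure-labelled pigs as squares above and ischemia-labelled pigs as circles below each gene's position. Vertical ticks are the label groups' means. Only for DDX60 do all 3 squares lie left of all 6 circles, at -0.76 or lower against -0.22 or higher.

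At baseline the pressure-labelled pigs had higher antiviral means than the ischemia-labelled pigs in 8 of 8 genes, by a median of 1.13, and this too rested on pig 10. Without it the median difference was 0.12 and 6 of 8 genes were higher. In limma over the 9 baseline arrays, 0 of the 10 antiviral probe sets passed (2 had an unadjusted p under 0.05), against 0.0209% of all tested probe sets that passed and 3322 of the 23935 with an unadjusted p under 0.05. The ISG15 mean was 10.32 ± 2.43 in pressure-labelled and 8.32 ± 0.50 in ischemia-labelled pigs at baseline (SD, n = 3 and 6), and the pressure-labelled mean was 8.92 without pig 10. Label wording and the animals that carry it cannot be told apart in this design.

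The rest of the interferon pathway was followed in lists of genes by role, and in limma 0 of their measured members passed the threshold in failure against baseline. Measured were 20 of 47 listed symbols of other type I genes and 14 of 21 of interferon gamma and antigen presentation genes. For JAK-STAT and IRF signalling it was 18 of 20, for nucleic acid sensing 9 of 22 and for interferons and receptors 7 of 17. Of the other type I interferon-stimulated genes, 17 of 20 had a mean change below 0 (median -0.12, 4 with an unadjusted p under 0.05), where 53.6% of all 6765 genes had a mean change below 0 and 5.54% had such a p. The changes of smallest p were those of the chemokine gene CCL5 (-0.34, SE 0.11), IFIT3 (-0.33, SE 0.11) and IFIT1 (-0.26, SE 0.10), with adjusted p of 0.591, 0.591 and 0.699 in limma. IFIT3 was lower in 8 of 9 pigs, and its lowest change was -1.27 in pig 10. Genes induced by interferon gamma or used in antigen presentation were lower in 12 of 14 (median -0.09, 2 unadjusted). PSMB8, a subunit of the immunoproteasome, had a change of -0.29 (SE 0.06) and was lower in 9 of 9 pigs (adjusted p = 0.203 in limma). TAP1, of the peptide transporter that loads MHC class I, had -0.25 at its brightest probe set (SE 0.09, adjusted p = 0.613). Its dimmer probe sets had mean changes of 0.10 and 0.03. The chemokine gene CXCL9 had -0.47 (SE 0.23, adjusted p = 0.824).

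Upstream of these genes the mean changes lay on both sides of 0. Of the 18 measured JAK-STAT and IRF signalling genes, 7 were below 0 (median 0.01, 1 with an unadjusted p under 0.05 in limma, as had 5.54% of all genes). The transcription factor genes STAT2 (-0.09, SE 0.11), IRF9 (-0.08, SE 0.08) and IRF7 (-0.04, SE 0.09) had adjusted p from 0.941 to 0.972. PTPN2, a phosphatase that removes phosphate from JAK and STAT proteins, was higher in 8 of 9 pigs by a mean of 0.17 (SE 0.06, adjusted p = 0.637). The feedback inhibitor gene SOCS3, dim at a mean of 3.25, had 0.12 (SE 0.06, adjusted p = 0.838), and PTPN1 had 0.11 (SE 0.07, adjusted p = 0.874).

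Of 9 measured nucleic acid sensing genes, 4 were below 0 (median 0.02), and 3 had an unadjusted p under 0.05 in limma, as had 5.54% of all genes. The adaptor gene MAVS had -0.28 (SE 0.12, adjusted p = 0.800 in limma), the Z-nucleic acid sensor ZBP1 -0.26 (SE 0.10, adjusted p = 0.695) and the RIG-I ubiquitin ligase RNF135 -0.17 (SE 0.07, adjusted p = 0.714). Of 7 interferon and receptor genes, 4 were below 0 (median -0.09, 1 unadjusted). IFNA1 had 0.15 (SE 0.07, adjusted p = 0.806 in limma), the receptor genes IL10RB -0.19 (SE 0.09, adjusted p = 0.822), IFNAR1 -0.10 (SE 0.06, adjusted p = 0.864) and IFNAR2 0.05 (SE 0.08, adjusted p = 0.957). The dimmer IFNAR2 probe set had a mean change of -0.15. ISG15 conjugation was covered by 1 measured gene of 6 listed, the ubiquitin ligase ARIH1 (-0.15, SE 0.05, adjusted p = 0.637).

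Of the pathway genes, SAMHD1, IFI35 and TAPBP had the smallest p for a difference by label wording, and none passed (adjusted p = 0.867 in limma for each). SAMHD1, which hydrolyses nucleotides needed by viruses, had a mean change of -0.37 ± 0.21 in pressure-labelled and 0.07 ± 0.14 in ischemia-labelled pigs (SD, n = 3 and 6). IFI35 had -0.42 ± 0.22 in pressure-labelled and 0.05 ± 0.19 in ischemia-labelled pigs, and TAPBP, which encodes the class I loading factor tapasin, had -0.47 ± 0.17 in pressure-labelled and -0.01 ± 0.27 in ischemia-labelled pigs.

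Markers of blood cells are set beside these changes. In failure against baseline, 5 of 5 measured red blood cell markers (of 10 listed) had changes below 0, of which 3 passed in limma, with summed intensities of 399 to 930 in failure and 720 to 2166 at baseline. T and NK cell markers were below 0 in 9 of 11 (4 with an unadjusted p under 0.05, 0 passed), with sums of 213 to 267 in failure and 238 to 306 at baseline. Over all 6765 genes, 53.6% were below 0 and 5.54% had such a p, and 5 passed with a change below 0 and 2 above 0. Monocyte and macrophage markers were below 0 in 3 of 8 (0 passed). Neutrophil markers were below 0 in 3 of 6, platelet markers in 4 of 4, and B cell and plasmacytoid dendritic cell markers in 0 of 4 (0 passed in each). The part of blood cells in the changes of the antiviral genes was not tested.

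The genes whose levels were most like the mean of the 8 antiviral genes over the 18 arrays were IFIT3 (r = 0.97), IFI44L (0.96), IFIT1 (0.96), XAF1 (0.96), RSF1 (0.96), ISG12(A) (0.94), PARP12 (0.94) and IRF7 (0.92). These values are descriptive, since the arrays come in pairs of 1 animal and those of pig 10 lie far from the rest. Over the 16 arrays without pig 10 the r was 0.86 for IFIT3, 0.77 for IFI44L, 0.78 for IFIT1, 0.72 for XAF1, 0.82 for RSF1, 0.76 for ISG12(A), 0.53 for PARP12 and 0.43 for IRF7, and 2 of the 8 (IFIT3 and RSF1) were still among the first 8 of all genes. The probe table names RSF1, a subunit of a chromatin remodelling complex, for this probe set, which was at 12.17 in failure and 11.92 at baseline in pig 10 and at most at 9.53 and 9.46 in the others. The other 2 RSF1 probe sets had pig 10 within the range of the others, at 7.20 and 4.52 in failure, so the pattern belongs to 1 probe set and is not ascribed to the gene. ISG12(A) belongs to the family of the interferon-induced human gene IFI27. The mean of the 8 antiviral genes includes OAS1, which in pig 13 was at 3.74 in failure and 3.79 at baseline. Without pig 10 the gene most like this mean was MLLT11, with an r of 0.86, against 0.13 over the 18 arrays. In MLLT11 both arrays of pig 13 lay at least 0.56 log2 units below all arrays of the other pigs. The part of pig 13 in the r without pig 10 was not tested.

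The antiviral genes also varied together among themselves. Set against the mean of the other 7, each gene had an r from 0.75 (OAS1) to 0.98 (DDX58) over the 18 arrays. Without pig 10 these ran from 0.47 (DDX60) to 0.90 (DDX58) in 7 genes, and the r of MX2 was -0.26. For the 9 paired changes they ran from 0.33 (DDX60) to 0.86 (DDX58). DDX60 and MX2 thus followed the others least once pig 10 was left out. The mean levels of MX2 without pig 10 were 6.55 in failure and 6.52 at baseline. The part of pig 13, with its low OAS1 level, in the r without pig 10 was not tested.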

How the data were processed

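The authors deposited log2 intensities per probe set for 18 arrays, made from Trizol and RNeasy RNA with a 3' IVT labelling kit per the labels' protocols. The submitters' processing notes name Partek, no version, and the sources used here do not state background correction or normalization. Values were used as deposited. The probe table names 1 gene for 10099 probe sets, several for 198 and does not list 13826. Symbols were looked up by gene ID in the RefSeq table (9989 found, 0 changed). A gene was represented by its brightest of the tested probe sets, and 188 control probe sets were not tested. Two-sided tests used limma 3.58.1 in R 4.3.3 with Benjamini-Hochberg adjustment over 23935 probe sets, and were tested on simulated data. Failure against baseline and the interaction by wording had a block for the pig. Label wording at baseline was compared over the 9 baseline arrays without a block. Both samples of an animal carry its number in the labels, which is the source of the pairing. Deviations from the group means of same-numbered samples had an r of 0.449 to 0.750, highest within the animal for 9 of 9. The members and gene lists were chosen with earlier results of these data known. Named genes are the members, 9 measured pathway genes fixed by name, the 3 of smallest p per list (none passed), the 3 of smallest interaction p and the 8 most like the members. Sequences of the genes were not used here. Alternatives were the block, scalings, filters, variance models, the GAPDH covariate, each label wording alone and each pig left out. The number of arrays limits the precision.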

Additional observations from a re-analysis of the deposited data

Results flagged for a closer look

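In 49 of 129 groups of 9 values, the highest or lowest sample stood apart from the rest by Dixon's criterion, where chance gives about 1 in 20 groups. These groups are not independent, since the genes vary together and the same animal recurs. They also include the genes picked as most like the antiviral ones over arrays that hold those of pig 10. For these genes the chance rate is no yardstick, and nothing is read from the count. Of the 49, 41 are levels of pig 10, 5 are changes of pig 10 and 3 belong to other pigs.

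Among the antiviral genes, the levels of pig 10 in failure that stood apart were those of DDX58 (8.43, and 6.37 at its second probe set), MX2 (7.53), ISG15 (12.78), USP18 (9.06) and the RSAD2 control probe sets at the 3' end (7.73) and in the middle (3.56). At baseline they were those of DDX60 (7.03), DDX58 (9.49 and 7.56), MX1 (10.68), MX2 (7.75), ISG15 (13.11), USP18 (9.39) and RSAD2 (11.01, with 8.63 and 4.59 at the 3' and middle control probe sets). The change of pig 10 at the middle RSAD2 control probe set, -1.03, also stood apart. OAS1 stood apart in failure in pig 13 (3.74).

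Among other pathway genes and the genes most like the antiviral ones, the levels of pig 10 that stood apart in failure were IRF9 (7.86), IRF7 (7.45), IFIT2 (8.20), EIF2AK2 (9.79), PSMB8 (8.59), IFI44L (11.30), XAF1 (8.80), ISG12(A) (12.38), PARP12 (9.19) and the RSF1 probe set (12.17). At baseline they were IRF7 (8.18), IFIT1 (10.30), IFIT2 (9.33), IFIT3 (10.77), EIF2AK2 (9.85), PSMB8 (8.99), TAP1 (9.84), SAMHD1 (9.69), IFI35 (8.20), IFI44L (11.70), XAF1 (9.20), ISG12(A) (12.17), PARP12 (9.77) and the RSF1 probe set (11.92). The changes of pig 10 stood apart in STAT2 (-1.06), IRF7 (-0.73), IFIT2 (-1.12) and IFIT3 (-1.27). In failure, MAVS stood apart in pig 5 (4.43) and CCL5 in pig 8 (7.11).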

How the results depend on the processing

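In limma, 16 probe sets passed in failure against baseline. The count was 0 with no replicate block (440 had an unadjusted p under 0.05), 3 within the ischemia-labelled pigs, 0 within the pressure-labelled pigs (1211 unadjusted), 9 among the probe sets brighter than the median (fewer were tested), 10 with eBayes trend and robust and 9 with the GAPDH covariate. It ran from 2 (without pig 10) to 26 (without pig 8) with 1 pig left out. For label wording at baseline, 5 passed, with 1 under the GAPDH covariate and 0 to 2 with 1 pig left out. Where the construction does not show it, the cause was not tested. No antiviral probe set passed in any of these settings, nor did any probe set for the interaction by wording. Of the 8 genes most like the antiviral ones, 1 was shared when ranked on the paired changes and 2 without pig 10. The median antiviral change ran from -0.30 to -0.22 over 4 other settings and from -0.28 to -0.15 with 1 pig left out, and 7 of the 8 genes kept a negative mean throughout. The exception was MX2, above 0 after quantile normalization and without pig 8, 10, 13 or 14. The difference by wording turned sign for ISG15 without pig 14 (0.15), for MX2 without pig 10 and for RSAD2 without pig 5, 6, 8 or 11. The pig numbers come from the labels, and each sample has 1 array. With the pig as a block, p-values rest on the spread of the changes of the 9 animals. Those for label wording at baseline rest on the spread between animals.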
